A study of Mus musculus with 16 samples.

Results

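Kruppel-like factors are transcription factors with a carboxy-terminal block of zinc fingers that binds CACCC and GC-rich boxes in promoters. The family falls into members that activate transcription (Klf2, Klf4, Klf6 and Klf7 here), members that recruit the corepressor CtBP (Klf3 and Klf12) and members that recruit the corepressor Sin3 (Klf9, Klf10, Klf11 and Klf13). In T lymphocytes Klf2 is known as a factor of quiescent cells that keeps the genes for lymph node entry and exit switched on, and Klf4 is known to restrain division of CD8 T cells. The 10 genes named here were taken by symbol or older synonym from the non-control probes of a whole mouse genome array, out of 27670 gene names on it. They are covered by 20 probes of 60 bases, of which 17 were well above background on at least 3 of 4 arrays of some group and could be tested. All 10 genes kept at least 1 such probe, 7 of them 2. The array's older name Tieg3 was read as Klf11, and D530033K05Rik as Klf12.

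The donors were female C57BL/6N mice, 7 weeks old, whose CD8+ Thy1.2+ T cells were sorted by flow cytometry into CD44lo (naive) and CD44hi (memory phenotype) cells. Both kinds were held for 4 h in medium alone (resting) or in that medium plus 10 ng/mL PMA and 500 ng/mL ionomycin (stimulated). This drug pair acts on protein kinase C and on calcium inside the cell and so triggers activation without the T cell receptor. Naive and memory phenotype cells, each resting and stimulated, make 4 groups of 4 arrays, and the series' text says that sort and culture were carried out 4 times. CD44hi cells of unimmunised mice are called memory phenotype because no antigen is known for them.

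Levels are log2 signal minus the log2 of the array's 75th percentile, so 0 stands for that percentile and 1 unit for a doubling, and levels of different probes are not compared. A change is called where the adjusted p of limma's moderated test (Benjamini-Hochberg over 18403 genes, each represented by its tested probe of highest mean) is under 0.05. Each slide held the arrays of 1 group only, so slide and group cannot be told apart. Cd44, the gene of the sorting marker, followed the labels in resting cells, at -0.58 ± 0.13 in naive and 3.47 ± 0.10 in memory phenotype cells (SD, n = 4). The 5 CD8 T cell markers on the array (Cd8a, Cd8b1, Cd3e, Cd3g and Thy1) were above background in all groups. Of 9 monocyte, macrophage and neutrophil markers, 9 were above background in both resting groups. The summed linear level of those 9 genes, in units of the 75th percentile, was 8.33 to 14.1 in naive resting, 1.52 to 3.0 in naive stimulated, 13.8 to 22.0 in memory resting and 2.68 to 4.32 in memory stimulated cells. The NK cell list (Ncr1, Klrb1c, Eomes, Nkg7 and Klre1) summed to 5.83 to 10.3 in naive resting, 13 to 21.0 in naive stimulated, 17.5 to 19.7 in memory resting and 41.7 to 65.8 in memory stimulated cells, with 3 to 5 of 5 genes above background by group and Ncr1 above it on no array of naive cells. Of 6 B cell genes 3 to 5 were above background by group, at sums of 0.186 to 2.18, and Pax5 was so on no array. Of 6 dendritic cell genes 4 were above it in every group, at sums of 0.531 to 4.88, and Clec9a on no array. Of 4 CD4 T cell genes 2 to 3 were above it, at sums of 0.171 to 1.03, and Foxp3 on no array. The part of other cells in the results was not tested, and in bulk samples fewer cells of a type and less RNA per cell cannot be told apart.

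Of the family members called on stimulation most fell, and Klf9 rose in both cell types. In naive cells 5 of 10 genes fell (Klf3, Klf6, Klf7, Klf11 and Klf13), where 32.0% of all genes tested fell, and 1 rose (Klf9), where 36.7% of all genes rose. In memory phenotype cells 4 fell (Klf3, Klf6, Klf7 and Klf11), against 40.8% of all genes, and 2 rose (Klf9 and Klf4), against 30.1%. The count of falls in memory phenotype cells was thus near the share over all genes. The median change of the 10 genes was -0.81 in naive and -0.72 in memory phenotype cells, beside 0.11 and -0.21 over all genes. These counts leave Klf2 among the genes that did not pass, because the probe that stands for it passed in neither response. Its other probe fell in both. Counting a gene where any of its tested probes was called, 6 fell and 1 rose in naive cells (34.7% and 40.5% of all genes by that count), and 5 fell and 2 rose in memory phenotype cells (44.0% and 33.0%). Scaling arrays to their median in place of the 75th percentile moved the median change of all genes by 0.36 in the memory response, by -0.21 in the resting difference, by 0.14 in the stimulated difference and by 0.35 in the interaction. The share of calls that were higher went from 42.4% to 58.1% in the memory response with that scaling. The summed level of the monocyte, macrophage and neutrophil genes given above was lower after stimulation too. None of the family's called changes turned sign under it, under quantile scaling or in the authors' deposited table.

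**Figure D1:**
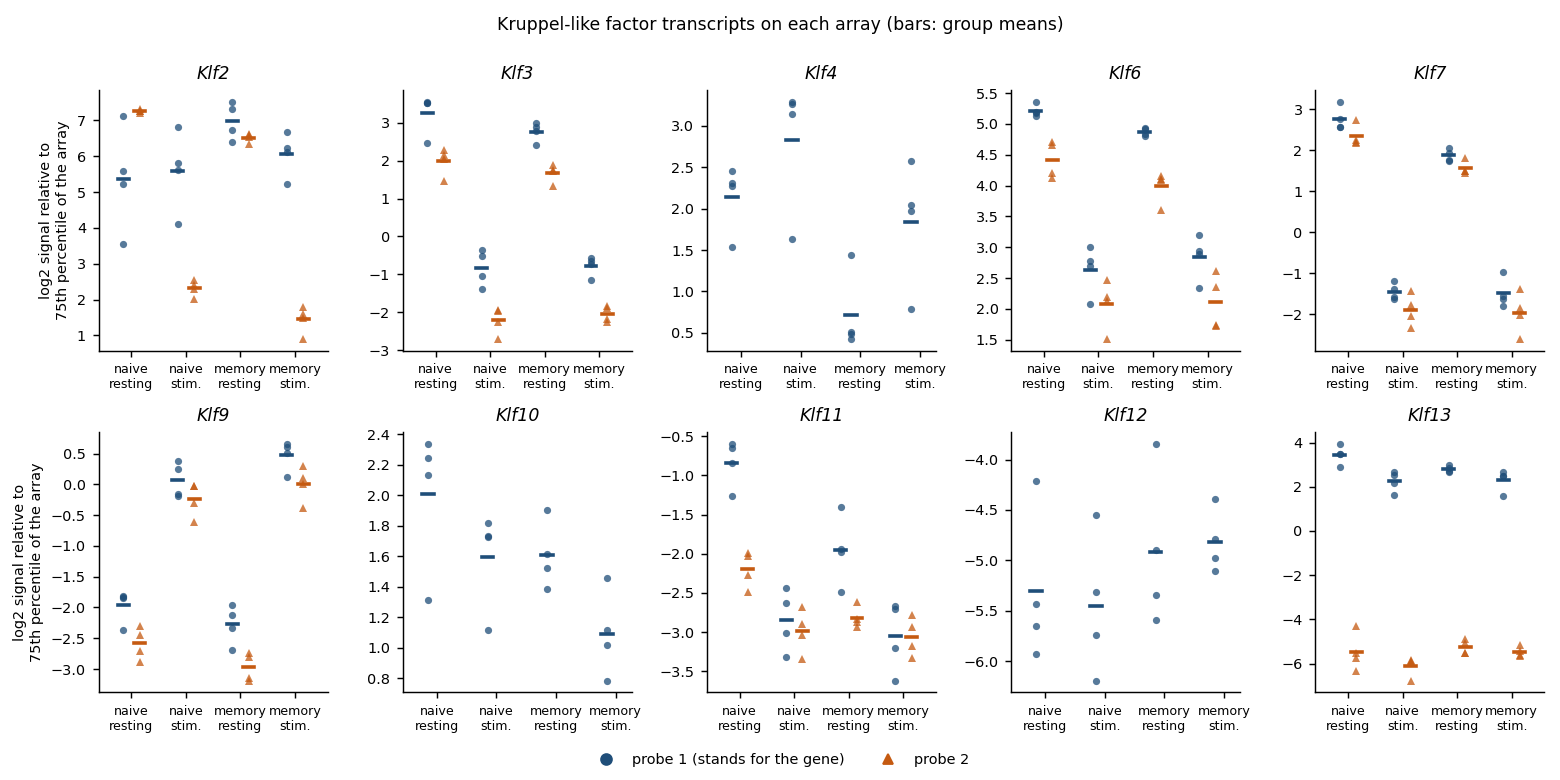
Log2 signal relative to the 75th percentile of the array (vertical axes, each with its own range) for the 10 Kruppel-like factor genes in the 4 groups, 1 point per array and a bar at each group mean; circles are the probe that stands for the gene and triangles the second tested probe. The triangles of Klf2 sit at 7.21 to 7.31 in naive resting cells and at 2.03 to 2.56 in naive stimulated cells, while its circles overlap between all groups.

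Klf2 has 2 probes, and they are shown first because the reading of this gene depends on which is used. The upstream one (probe 1 in the plots, chr8:70842757-70842816 on mouse build mm7, plus strand) is brightest and so stands for the gene by the rule. The downstream one (probe 2, chr8:70844133-70844192, plus strand) starts 1376 bases further along the genome, toward the 3′ end of the gene. The distance along the transcript was not measured. Labelling in this study was primed from the poly(A) tail, per the labels' protocols. Probe 1 is printed whole and probe 2 by its first 30 bases, 5′ to 3′ as the files give them, with G and C in capitals:
Klf2 probe 1: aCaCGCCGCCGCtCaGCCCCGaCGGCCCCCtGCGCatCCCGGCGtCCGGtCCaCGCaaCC
Klf2 probe 2: tGtatataaGaCtatGaCCGattGtatttC
G and C make up 78.3% of probe 1 and 43.3% of probe 2, where the median over the 27349 tested probes is 41.7%. Only 0.0475% of tested probes hold as much G and C as probe 1.

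Probe 2 showed one of the larger falls on these arrays. In naive cells its log2 level was 7.31, 7.25, 7.21 and 7.26 on the resting arrays and 2.03, 2.56, 2.41 and 2.30 on the stimulated arrays. The resting arrays lay within 0.10 of each other, and every stimulated array lay far below them. Fitted with each probe on its own over all 27349 probes, the change was -4.93 ± 0.16 (SE, adjusted p = 1.91e-12), a 30.5-fold fall that ranked 61st among the falls of all tested probes. In memory phenotype cells the resting arrays read 6.34, 6.62, 6.53 and 6.61 and the stimulated arrays 0.91, 1.60, 1.78 and 1.50. That is a change of -5.07 ± 0.16 (adjusted p = 1.62e-12), or 33.7-fold. The 4 groups did not overlap, in the order naive resting, memory resting, naive stimulated and, lowest, memory stimulated. Memory phenotype cells were lower than naive cells at rest by -0.73 ± 0.16 (adjusted p = 0.00553) and after stimulation by -0.88 ± 0.16 (adjusted p = 0.00148). The memory response and the naive response differed by -0.14 (95% interval -0.64 to 0.35, adjusted p = 0.739). Over 23 other settings, each chosen after seeing the data, the naive response of probe 2 stayed between -5.23 and -4.80 and the memory response between -5.42 and -4.71, all called. Its resting and stimulated differences were called in all of these but the normexp background correction, at an adjusted p of 0.406 and 0.0556.

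Probe 1 gave wide replicates and no called change. Its log2 level was 7.11, 5.23, 5.60 and 3.55 on the naive resting arrays and 6.81, 5.82, 5.60 and 4.12 on the naive stimulated arrays. In memory phenotype cells it was 7.51, 6.41, 7.33 and 6.73 at rest and 6.68, 6.24, 6.12 and 5.22 after stimulation. All groups overlapped with their neighbours in order of level. The naive response was 0.22 (95% interval -1.15 to 1.58, adjusted p = 0.776) and the memory response -0.93 (95% interval -2.30 to 0.43, adjusted p = 0.203), so the naive response measured by probe 2 lies outside the interval of probe 1. The resting difference was 1.62 ± 0.64 (adjusted p = 0.0860). With the replicate number as a block it was called (adjusted p = 0.00597), and the memory array was the higher of each of the 4 same-numbered pairs. Without naive resting replicate 1 it was 2.20 with an adjusted p of 0.0128, opposite in sign to that of probe 2. Averaging both probes gave a naive response of -2.36 (adjusted p = 7.65e-06) and a memory response of -3.0 (adjusted p = 5.26e-07). The memory response of probe 1 was called when only the arrays of memory phenotype cells were fitted (adjusted p = 0.0332). It was also called with the replicate number as a block (adjusted p = 0.0342), and the stimulated array was the lower of each of the 4 same-numbered pairs. Under the normexp background correction, whose fit did not converge on 3 arrays, it was -1.49 (adjusted p = 0.0499).

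The levels of probe 1 went with other GC-rich probes over the 16 arrays, a comparison chosen after its values were seen. With the 12 other tested probes of at least the same G and C content its median Pearson r was 0.80, and with the 27292 probes of lower content that had a value on all arrays it was 0.02. The tested genes most like it were NAP050809-1 (r = 0.996) and Cox17 (r = 0.984). Probe 2 was most like Tsc22d3, a gene induced by glucocorticoids and by FoxO factors (r = 0.998), and Dnajc28 (r = 0.997), all of these over the same 16 arrays. The correlations describe arrays that share their group structure, slides and scaling.

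**Figure D2:**
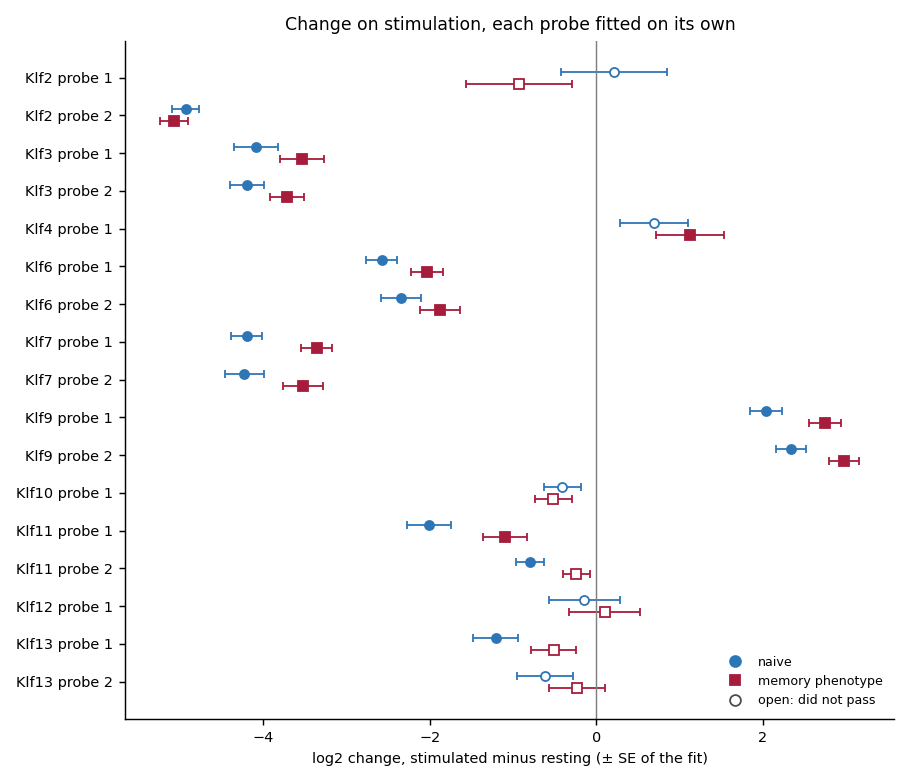
Log2 change on stimulation (horizontal axis, stimulated minus resting, with the SE of the fit) for each of the 17 tested probes of the Kruppel-like factor genes in naive (circles) and memory phenotype cells (squares), filled where the adjusted p is under 0.05. Klf2 probe 2 lies at -4.93 and -5.07 while Klf2 probe 1 lies at 0.22 and -0.93, and the probes of Klf3, Klf6, Klf7 and Klf9 lie close to their partners.

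Among the other activators, Klf6 and Klf7 fell and Klf4 did not. Klf7 (probe 1 at chr1:64319432-64319491, minus strand) is known as a factor that stimulates growth of neurons and the survival of early T cells. Its log2 level was 3.17, 2.55, 2.55 and 2.75 on the naive resting arrays and -1.19, -1.57, -1.63 and -1.38 on the naive stimulated arrays, with no overlap. The naive change was -4.20 ± 0.18 (adjusted p = 3.03e-11), an 18.4-fold fall. Memory phenotype cells held 2.06, 1.76, 1.73 and 1.94 at rest and -0.96, -1.63, -1.55 and -1.80 after stimulation, a change of -3.36 ± 0.18 (adjusted p = 3.26e-10). The second probe (chr1:64274226-64274285) changed by -4.23 in naive and -3.53 in memory phenotype cells, so both probes of Klf7 gave the same answer.

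Klf7 was also lower in memory phenotype than in naive cells at rest, by -0.88 ± 0.18 (adjusted p = 0.00305), and the second probe read -0.78 ± 0.24 (adjusted p = 0.0323). After stimulation the groups overlapped and differed by -0.04 (95% interval -0.43 to 0.35). The fall in memory phenotype cells was smaller by 0.84 ± 0.26 (adjusted p = 0.0331), and Klf7 was the only family member called in this interaction, where 5.61% of all genes were called higher. That call was lost when any 1 of 6 arrays was left out (naive resting replicate 1, memory stimulated replicate 1, and replicates 2 and 3 of memory resting and of naive stimulated), with values of 0.67 to 0.81 and adjusted p between 0.0514 and 0.0674. It was not made by the second probe alone (0.71, adjusted p = 0.174) or by the mean of both probes (0.78, adjusted p = 0.0764). Under median scaling the share of interaction calls that were higher went from 28.4% to 72.0%. With that scaling 5 family members were called higher, where 26.2% of all genes were.

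Klf6 (probe 1 at chr13:5755138-5755197, plus strand) is a broadly expressed factor that is known to raise the cell cycle inhibitor Cdkn1a. Its log2 level was 5.18, 5.19, 5.13 and 5.36 in naive resting and 2.07, 2.77, 2.70 and 3.0 in naive stimulated cells. In memory phenotype cells it was 4.83, 4.81, 4.92 and 4.94 at rest and 2.33, 2.89, 2.94 and 3.19 after stimulation. Stimulated arrays lay below all resting arrays, and the stimulated groups overlapped each other. The changes were -2.58 ± 0.19 in naive (adjusted p = 8.60e-09) and -2.04 ± 0.19 in memory phenotype cells (adjusted p = 1.26e-07). The second probe (chr13:5752473-5752532) changed by -2.34 and -1.88. The resting groups did not overlap on probe 1, yet their difference of -0.34 ± 0.19 did not pass (adjusted p = 0.222), and on the second probe they overlapped.

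Klf4 (1 probe, chr4:55541780-55541839, minus strand) was not called lower in either response. Its log2 level was 1.54, 2.31, 2.27 and 2.45 on the naive resting arrays and 1.64, 3.29, 3.26 and 3.14 on the naive stimulated arrays. The memory phenotype arrays read 0.43, 0.51, 0.49 and 1.44 at rest and 0.78, 1.98, 2.04 and 2.58 after stimulation. In each of the stimulated groups replicate 1 was low and fell within the range of the resting arrays. The level was lower in memory phenotype than in naive cells at rest by -1.42 ± 0.41 (adjusted p = 0.0222), a 2.68-fold difference that ranked 104th among the genes lower in memory phenotype cells. That call was lost when any 1 of 6 arrays was left out (naive resting replicates 2, 3 and 4, and memory resting replicates 1, 2 and 3), with differences of -1.38 to -1.32 and adjusted p between 0.0553 and 0.0647. The memory array was the lower of each of the 4 same-numbered resting pairs, and with the replicate number as a block the adjusted p was 0.000892. On stimulation Klf4 rose by 1.13 ± 0.41 in memory phenotype cells (adjusted p = 0.0227). This rise was not called without memory resting replicate 1, 2 or 3 or without memory stimulated replicate 3 or 4, at 0.88 to 1.06 and adjusted p of 0.0513 to 0.0791. In naive cells the change was 0.69 ± 0.41 (adjusted p = 0.146), and without naive stimulated replicate 1 it was 1.09 (adjusted p = 0.0154). The stimulated difference was -0.99 ± 0.41 (adjusted p = 0.0943), and it was called without naive stimulated replicate 1 (-1.39, adjusted p = 0.0119) or memory stimulated replicate 4 (-1.23, adjusted p = 0.0494).

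Of the CtBP-binding repressors, Klf3 fell strongly and Klf12 was near background. Klf3, which is known to repress many of the promoters that Klf1 and Klf2 activate, has 2 probes. Probe 1 (chr5:64177140-64177720, plus strand) spans 581 bases for its 60 bases of sequence and so crosses an intron in the alignment given. Its log2 level was 3.53, 3.53, 3.54 and 2.46 in naive resting and -1.39, -0.35, -0.51 and -1.05 in naive stimulated cells. Memory phenotype cells read 2.77, 2.98, 2.89 and 2.41 at rest and -1.15, -0.57, -0.71 and -0.64 after stimulation. Resting and stimulated arrays were wide apart, and naive and memory phenotype arrays overlapped in both conditions. The naive change was -4.09 ± 0.27 (adjusted p = 2.21e-09), 17.0-fold, and the memory change -3.53 ± 0.27 (adjusted p = 1.16e-08), 11.6-fold. The second probe (chr5:64184115-64184174) changed by -4.20 and -3.71. At rest the 2 cell types differed by -0.50 ± 0.27 (adjusted p = 0.202), and without naive resting replicate 4 by -0.77 (adjusted p = 0.0303). After stimulation they differed by 0.06 (95% interval -0.51 to 0.62).

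Klf12 is covered by 4 probes, of which 3 were not well above background on any array. The tested probe (chr14:94275091-94275150, minus strand) was above background on 11 of 16 arrays, with log2 levels between -6.20 and -3.84. All 4 groups overlapped, and no comparison passed. The naive response was -0.14 (95% interval -1.05 to 0.77) and the memory response 0.10 (95% interval -0.81 to 1.01). The naive interval reaches a halving and the memory interval a doubling.

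Klf9 was the member that rose in both cell types. It belongs to the Sin3-binding members and is known as a target of glucocorticoid and thyroid hormone receptors. On probe 1 (chr19:22862974-22863033, plus strand) the naive resting arrays read -1.85, -1.84, -1.81 and -2.37 and the naive stimulated arrays -0.19, 0.24, 0.38 and -0.16. Memory phenotype cells gave -1.96, -2.33, -2.11 and -2.69 at rest and 0.13, 0.60, 0.51 and 0.66 after stimulation. No stimulated array reached down to a resting one. The rise was 2.04 ± 0.19 in naive (adjusted p = 1.51e-07), 4.10-fold, and 2.75 ± 0.19 in memory phenotype cells (adjusted p = 4.93e-09), 6.71-fold. The second probe (chr19:22863775-22863834) rose by 2.34 ± 0.18 and 2.98 ± 0.18. The rise in memory phenotype cells exceeded that in naive cells by 0.71 ± 0.27, which did not pass (adjusted p = 0.0814). It passed without memory stimulated replicate 1 (0.83, adjusted p = 0.0486) and without naive resting replicate 4 (0.84, adjusted p = 0.0360), under quantile scaling (0.84, adjusted p = 0.0293) and under median scaling (1.06, adjusted p = 0.00732).

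Klf11 and Klf10, both first described as early genes of transforming growth factor beta signalling, moved less. Klf11 probe 1 (chr12:22498958-22499017, plus strand) read -1.27, -0.66, -0.84 and -0.60 in naive resting and -3.31, -2.44, -2.63 and -3.0 in naive stimulated cells. Memory phenotype cells gave -2.48, -1.94, -1.98 and -1.40 at rest and -3.62, -2.70, -2.67 and -3.21 after stimulation. Naive resting cells were the highest group without overlap. The naive change was -2.01 ± 0.26 (adjusted p = 6.24e-06), the memory change -1.10 ± 0.26 (adjusted p = 0.00168), and the resting difference -1.11 ± 0.26 (adjusted p = 0.00742). The second probe (chr12:22496989-22497048) gave smaller values, -0.80 ± 0.16 in naive cells (adjusted p = 4.60e-04), -0.24 ± 0.16 in memory phenotype cells (adjusted p = 0.195) and -0.62 ± 0.16 for the resting difference (adjusted p = 0.0156). On probe 1 the fall in memory phenotype cells was smaller by 0.91 ± 0.37, which did not pass (adjusted p = 0.105). This difference was called without memory stimulated replicate 1 (1.10, adjusted p = 0.0480) and without memory resting replicate 4 (1.09, adjusted p = 0.0468). It was called too under median scaling (1.26, adjusted p = 0.0174), with the replicate number as a block (adjusted p = 0.0178) and in the authors' deposited table, refitted (1.01, adjusted p = 0.0311).

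Klf10 (1 probe, chr15:38405475-38405534, minus strand) read 1.31, 2.34, 2.25 and 2.13 in naive resting, 1.12, 1.82, 1.73 and 1.73 in naive stimulated, 1.53, 1.62, 1.39 and 1.90 in memory resting and 0.79, 1.11, 1.02 and 1.46 in memory stimulated cells. Neighbouring groups overlapped, and none of its comparisons passed. The naive change was -0.41 ± 0.22 (adjusted p = 0.120), and without naive resting replicate 1 it was -0.64 (adjusted p = 0.00786). The memory change was -0.51 ± 0.22 (adjusted p = 0.0523). It passed without naive resting replicate 1 (adjusted p = 0.0164), naive stimulated replicate 1 (adjusted p = 0.0383), memory resting replicate 3 (adjusted p = 0.0471) or memory stimulated replicate 4 (adjusted p = 0.0282), and under quantile scaling both responses passed (-0.54 in naive and -0.65 in memory phenotype cells). Both also passed in the authors' deposited table, refitted (-0.55, adjusted p = 0.0280, and -0.72, adjusted p = 0.00586). The memory change passed too when only the arrays of memory phenotype cells were fitted (adjusted p = 0.0222) and with only probes above background on all 16 arrays (adjusted p = 0.0436). With the normexp background correction it passed as well (adjusted p = 0.0405). With the replicate number as a block both responses passed (adjusted p = 0.0308 in naive and 0.0093 in memory phenotype cells). In both responses the stimulated array was the lower of each of the 4 same-numbered pairs. The numbers were taken as pairs in the resting difference only. The resting difference passed without naive resting replicate 1 (-0.63, adjusted p = 0.0234), and the stimulated difference without that array (adjusted p = 0.0464) or without naive stimulated replicate 1 (-0.66, adjusted p = 0.0407).

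Klf13, known as a late activator of the chemokine gene Ccl5 in T cells, fell in naive cells. Probe 1 spans chr7:59641560-59687788 (minus strand) and so crosses an intron in the alignment given. It read 3.94, 3.49, 3.50 and 2.88 in naive resting, 1.60, 2.65, 2.54 and 2.16 in naive stimulated, 2.87, 2.72, 2.68 and 2.98 in memory resting and 1.56, 2.50, 2.65 and 2.47 in memory stimulated cells. The naive change was -1.21 ± 0.27 (adjusted p = 9.93e-04) and the memory change -0.51 ± 0.27 (adjusted p = 0.102). Memory resting and memory stimulated arrays did not overlap, and the memory change passed under quantile scaling (-0.85, adjusted p = 0.0107) and in the authors' deposited table, refitted (-0.84, adjusted p = 0.0107). The resting difference of -0.64 ± 0.27 (adjusted p = 0.110) passed without naive resting replicate 4 (-0.83, adjusted p = 0.0455). The second probe was above background on 5 of 16 arrays and passed in no comparison. Ccl5 itself rose in naive cells by 1.77 ± 0.15 and in memory phenotype cells by 0.79 ± 0.15, and was higher in memory phenotype cells by 4.53 ± 0.15 at rest and 3.55 ± 0.15 after stimulation, all called.

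Between the cell types, family members were called at rest but not after stimulation, and of these differences only that of Klf7 was itself called different between the conditions. At rest, where same-numbered arrays deviated together, the replicate block left the count of lower genes at 3 and added Klf2 on probe 1 as higher. With the block 13.1% of all genes were lower and 16.1% higher. Without the block, 3 of 10 genes were lower in memory phenotype cells (Klf4, Klf7 and Klf11), where 7.47% of all genes were lower, and none was higher, where 13.9% of all genes were. After stimulation none of the 10 genes passed in either direction, where 9.86% of all genes were higher and 14.2% lower in memory phenotype cells. At an unadjusted p under 0.05 in limma's fit 2 genes were lower after stimulation, Klf4 and Klf10, and none higher. At rest 4 were lower at that threshold, Klf4, Klf7, Klf11 and Klf13, and 1 was higher, Klf2 on probe 1. The share of all genes at the unadjusted threshold is not given here, so these counts have nothing to be set against. Klf2 on probe 2 was lower in both conditions. The replicate block made calls after stimulation, with Klf4 and Klf10 lower, where 18.0% of all genes were lower. So did median scaling, with Klf9 higher at 0.54 (adjusted p = 0.0420), where 16.6% of all genes were higher. Median scaling turned the share of calls that were higher from 65.0% to 30.2% at rest and from 41.0% to 61.5% after stimulation. With it 7 of 10 family members were called lower at rest, Klf3, Klf6, Klf9 and Klf13 beside the 3, where 23.8% of all genes were lower.

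**Figure D3:**
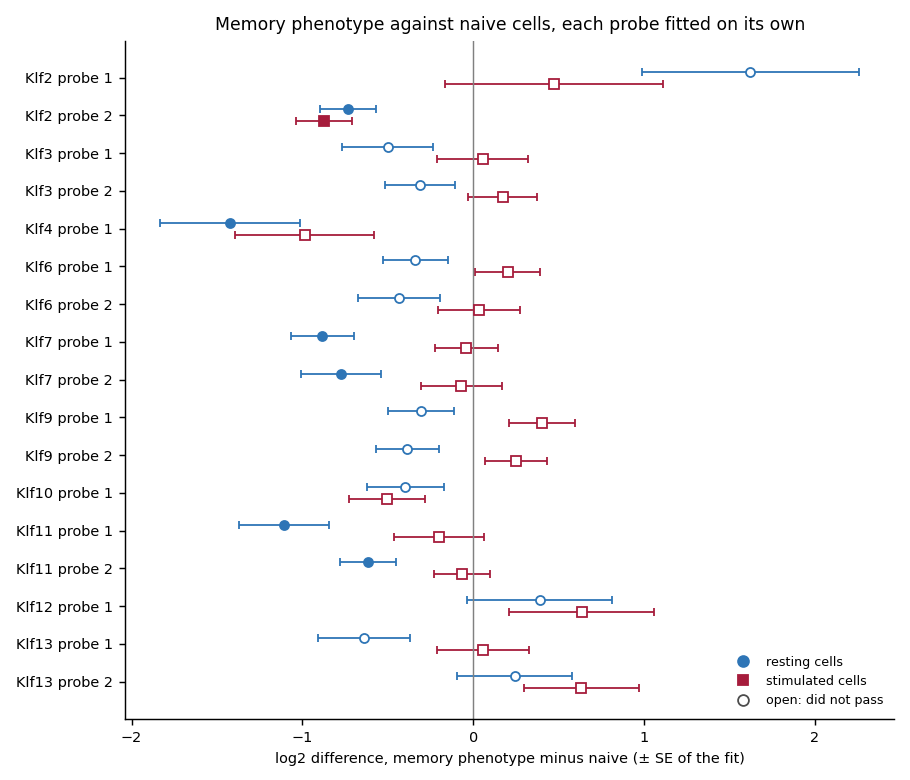
Log2 difference between memory phenotype and naive cells (horizontal axis, memory phenotype minus naive, with the SE of the fit) for each of the 17 tested probes at rest (circles) and after stimulation (squares), filled where the adjusted p is under 0.05. At rest the probes of Klf7 and Klf11, Klf4 and Klf2 probe 2 are filled to the left of 0, and after stimulation Klf2 probe 2 is, at -0.88.

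Klf2 on probe 2, Klf3, Klf6 and Klf7 followed each other closely. Over the 16 arrays, 18 pairs of probes of different genes among Klf2 probe 2, Klf3, Klf6 and Klf7 had a Pearson r of 0.92 to 0.98, and the same probes had r of -0.96 to -0.88 with those of Klf9. With Klf11, which also fell, they had r of 0.68 to 0.89, with Klf13 probe 1 of 0.71 to 0.82 and with Klf13 probe 2 of 0.33 to 0.43. These points share groups, slides and scaling, and the values are a description. The 7 genes with 2 tested probes had r between their own probes of 0.08 to 0.997. Klf2 probe 1 had r of -0.73 to 0.39 with probes of the other members. Outside the family, the genes most like each member, for members whose group means spanned more than 2 log2 units, were the following. Klf3 went with C230096K16Rik (r = 0.996) and ENSMUST00000100328 (r = 0.996). Klf7 went with Izumo4 (r = 0.995) and Tspan32 (r = 0.993), and Klf6 with Stk10, a lymphocyte kinase (r = 0.993), and 4932433N03Rik (r = 0.991). Klf9 went with Slc41a1, a magnesium transporter (r = 0.993), and Nedd9, an adhesion adaptor (r = 0.990). Klf4 went with Efnb2, an ephrin (r = 0.974), and Oser1 (r = 0.965), and Klf11 with AV025990 (r = 0.989) and Mark4 (r = 0.984).

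Promoter sequence was available for 9 members, all but Klf10, and was read as the 250 bases before the RefSeq start on GRCm38.p6. The promoters of Klf2 and Klf9 are shown because Klf2, as read by probe 2, and Klf9 had the largest fall and rise of the family. Each holds a match found in only 1 of the 9 promoters, as does that of Klf12, which is not shown. Capitals mark the MEF2 box, which was searched as CTA, any 4 bases and TAG, in Klf2 (chr8:72318812-72319061, plus strand). In Klf9 (chr19:23140976-23141225, plus strand) they mark GTAAACA, the FoxO box, followed by TGAATCA. The latter matched TGANTCA (N for any base), a loose form of the AP-1 box. Each promoter is given 5′ to 3′:
Klf2: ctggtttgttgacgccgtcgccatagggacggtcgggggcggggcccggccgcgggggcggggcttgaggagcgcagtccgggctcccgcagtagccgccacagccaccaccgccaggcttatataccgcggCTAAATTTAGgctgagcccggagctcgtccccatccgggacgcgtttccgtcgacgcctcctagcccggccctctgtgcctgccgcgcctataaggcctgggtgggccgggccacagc
Klf9: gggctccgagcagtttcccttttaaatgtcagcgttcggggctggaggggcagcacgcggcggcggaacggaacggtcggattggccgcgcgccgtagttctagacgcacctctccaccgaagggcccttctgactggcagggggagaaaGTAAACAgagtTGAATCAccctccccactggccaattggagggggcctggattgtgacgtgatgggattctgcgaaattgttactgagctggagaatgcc
The MEF2 box of Klf2 lies 118 to 109 bases before the start and was found in 1 of the 9 promoters, and in 3.2% of all 32851 promoters of the same length. The FoxO box of Klf9 lies 100 to 94 bases before the start (1 of 9, 3.17% of all) and the TGANTCA match 89 to 83 bases before it (1 of 9, 6.75% of all). Both strands were searched. CCACACCC, the CACCC box that Kruppel-like factors bind, was found in Klf12 alone (3.2% of all), GGGGCGGGG, a GC box, in 5 of 9 (10.4% of all) and GCGGGGGCG, the EGR box, in 3 of 9 (2.57% of all). In Klf2, Klf3 and Klf4 the EGR box overlaps a GC box. TGACGTCA, the CRE, and CCGGAAGT, the ETS box, were found in none of the 9 (1.55% and 2.88% of all). A match is a run of letters and was not tested as a binding site.

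The Klf2 gene is known to be switched on by the kinase pair Map2k5 and Mapk7 through MEF2 factors, and by Foxo1 and Elf4, while transforming growth factor beta receptors and SMAD proteins act on Klf10 and Klf11. Of 14 such upstream genes, 13 were tested. In naive cells 3 rose and 6 fell (36.7% and 32.0% of all genes did), with a median change of -0.38 beside 0.11 over all genes. In memory phenotype cells 2 rose and 8 fell (30.1% and 40.8% of all genes), with a median of -0.82 beside -0.21. Mef2d changed by -1.23 in naive and -0.98 in memory phenotype cells, Map2k5 by -1.40 and -1.24, and Foxo3 by -1.67 and -2.08, all called. The receptor gene Tgfbr2 (-2.92 and -2.62) and the SMAD genes Smad4 (-1.19 and -0.82) and Smad7 (-0.93 and -0.88) fell as well. The other receptor gene, Tgfbr1 (0.79 and 0.66), and Smad2 (0.44 and 0.41) rose in both cell types, and Smad3 was at 0.23 and 0.08, which did not pass. Foxo1 was at -0.38 ± 0.19 in naive cells, which did not pass, and at -0.59 in memory phenotype cells, which did. Mapk7 and Mef2a passed in neither response. Elf4 rose by 2.58 ± 0.72 in naive and fell by 2.74 ± 0.72 in memory phenotype cells, with an interaction of -5.32 ± 1.02 that was called, on arrays that ranged from -2.55 to 0.78 in naive resting, -1.66 to 1.50 in memory resting, -0.30 to 1.67 in naive stimulated and -3.20 to -3.01 in memory stimulated cells.

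Among the trafficking genes linked to Klf2, 5 are given, a subset of the list, so their count stands for these genes only. In each cell type 4 fell and 1 rose, where 32.0% of all genes fell and 36.7% rose in naive cells and 40.8% and 30.1% in memory phenotype cells. S1pr1, the sphingosine-1-phosphate receptor needed to leave lymph nodes, read 3.89 to 4.33 on the naive resting and -3.77 to -2.24 on the naive stimulated arrays, and 3.63 to 3.99 and -4.31 to -3.46 on the memory phenotype arrays. S1pr4, another receptor of this family, changed by -4.36 ± 0.18 in naive and by -4.30 ± 0.18 in memory phenotype cells. The changes in naive and memory phenotype cells were -1.65 ± 0.23 and -2.23 ± 0.23 for the homing chemokine receptor gene Ccr7, and -2.98 ± 0.23 and -2.24 ± 0.23 for the integrin gene Itgb7. Cxcr3, a chemokine receptor gene of effector cells that enter inflamed tissue, rose by 4.12 ± 0.23 and 1.27 ± 0.23. It rose less in memory phenotype cells, with an interaction of -2.85 ± 0.33, and its resting level there was already higher by 4.55 ± 0.23. At rest, where Klf2 probe 2 was lower in memory phenotype cells, S1pr1, S1pr4, Ccr7 and Itgb7 did not pass (-0.37, -0.33, -0.24 and -0.36). After stimulation S1pr1 (-1.02) and Ccr7 (-0.82) were lower in memory phenotype cells.

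**Figure D4:**
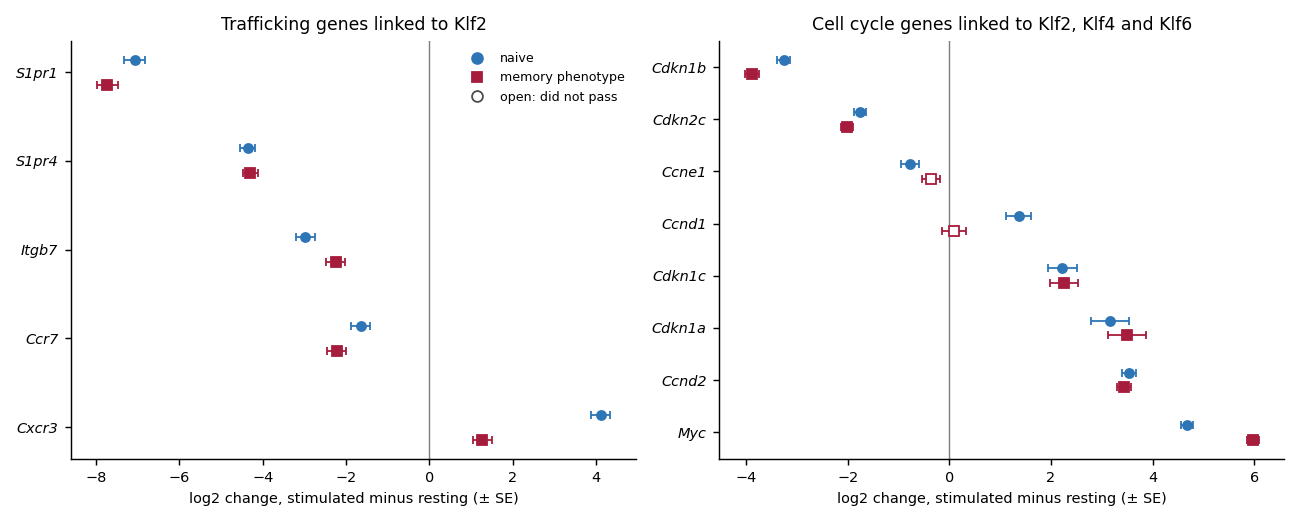
Log2 change on stimulation (horizontal axes, stimulated minus resting, with the SE of the fit) of 5 trafficking genes linked to Klf2 (left) and 8 cell cycle genes linked to Klf2, Klf4 and Klf6 (right), in naive (circles) and memory phenotype cells (squares), filled where called. S1pr4 lies near -4.3 in both cell types, and Cxcr3 at 4.12 in naive and 1.27 in memory phenotype cells.

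Cell cycle genes linked to Klf2, Klf4 and Klf6 moved in both directions. Of 8, 5 rose and 3 fell in naive cells (36.7% and 32.0% of all genes did), and 4 rose and 2 fell in memory phenotype cells (30.1% and 40.8%). The median change was 1.79 in naive and 1.17 in memory phenotype cells, beside 0.11 and -0.21 over all genes. Cdkn1a, the inhibitor that Klf4 and Klf6 are known to activate, rose by 3.15 ± 0.37 and 3.49 ± 0.37, and Cdkn1c rose by 2.23 ± 0.28 and 2.26 ± 0.28. The inhibitor genes Cdkn1b (-3.26 and -3.89) and Cdkn2c (-1.76 and -2.02) fell. Myc, which Klf2 is known to hold down, rose by 4.68 ± 0.11 in naive and 5.97 ± 0.11 in memory phenotype cells, and at rest it was lower in memory phenotype cells by -1.36 ± 0.11. Ccnd2 rose by 3.54 and 3.43. Ccnd1 rose by 1.36 in naive cells and was at 0.09 in memory phenotype cells, and Ccne1 was at -0.78 in naive cells, called, and at -0.37 in memory phenotype cells.

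The corepressors and ubiquitin ligases of the family were measured by 13 genes, all tested. In naive cells 4 rose and 7 fell (36.7% and 32.0% of all genes did), with a median change of -0.34 beside 0.11 over all genes. In memory phenotype cells 5 rose and 6 fell (30.1% and 40.8%), and the median of -0.21 equals that of all genes. Ctbp1, the partner of Klf3 and Klf12, was at 0.04 ± 0.15 in both responses. Ctbp2, its close relative, was at 0.31 ± 0.26 in naive cells, which did not pass, and rose by 1.93 ± 0.26 in memory phenotype cells, with an interaction of 1.62 ± 0.37 that was called. It was higher in memory phenotype cells by 0.94 ± 0.26 at rest, the only one of the 13 called there, and by 2.56 ± 0.26 after stimulation. Its probe was above background on 2 of 4 naive resting and 3 of 4 naive stimulated arrays. Sin3b rose by 0.76 ± 0.14 and 0.84 ± 0.14 while Sin3a was at -0.34 ± 0.13 in naive cells, called, and -0.21 ± 0.13 in memory phenotype cells, not called. Wwp1, a ubiquitin ligase that is known to act on Klf2, changed by -0.74 and -0.51, Smurf1 by -1.09 and -1.76 and Fbxw7 by 1.46 and 1.06, all called. The acetyltransferase gene Kat2b fell, at -1.77 and -2.43. The coactivator genes Ep300 (-0.99 and -0.83) and Crebbp (-0.41 and -0.45) fell, as did the deacetylase gene Hdac1 (-0.47 and -0.59), while Hdac2 (1.55 and 1.72) and Hdac3 (0.33 and 0.44) rose.

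Of 17 further Kruppel-like and Sp factors, 15 were on the array and 10 were tested. Klf1, Klf5, Klf14, Sp5 and Sp8 were not above background on enough arrays. In naive cells 2 rose and 3 fell, beside 36.7% and 32.0% of all genes, and in memory phenotype cells 1 rose and 4 fell, beside 30.1% and 40.8%. The median changes were 0.37 and -0.44, beside 0.11 and -0.21 over all genes. Klf16, a Sin3-binding member, rose by 0.83 ± 0.14 and 1.47 ± 0.14, and was called higher in the interaction (0.64 ± 0.19). Sp7, the bone factor osterix, rose by 1.42 ± 0.16 in naive cells and fell by 0.81 ± 0.16 in memory phenotype cells, with an interaction of -2.24 ± 0.22 (adjusted p = 5.53e-06). Its levels were low, above background on 2 of 4 naive resting and 1 of 4 memory stimulated arrays. Klf8, the CtBP-binding relative of Klf3, fell (-1.98 ± 0.22 and -1.48 ± 0.22). Sp3 fell too (-1.61 ± 0.12 and -1.28 ± 0.12), and Sp1 was at 0.35 ± 0.18 and 0.27 ± 0.18, which did not pass. Sp2 fell in naive cells (-1.09 ± 0.22) and was at -0.41 ± 0.22 in memory phenotype cells, not called. Sp6 fell in memory phenotype cells (-1.12 ± 0.41) and was at 0.54 ± 0.41 in naive cells, not called. Sp4, Klf15 and Klf17 passed in neither response.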

How the data were processed

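The authors scanned 16 arrays of 1 colour, and version 9.5.3.1 of Agilent Feature Extraction read the spots, per the file headers. The deposited intensity per spot (processed Cy3 signal) had background and spatial trends removed array by array, with no scaling between arrays, per the file headers. The authors' deposited table of processed intensity values, made by steps not given here, served as an alternative.

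The processed signal was put on a log2 scale and scaled to each array's 75th percentile (504.3 to 678.0 intensity units). Outlier and control spots were left out, and spots of a probe averaged. A probe was tested if well above background on 3 of 4 arrays of any group. A limma model (version 3.58.1, R 4.3.3) held a mean for each group over all 16 arrays (data.table version 1.17.8; Python 3.11.15, pandas 2.3.3, numpy 2.4.6, scipy and matplotlib 3.10.9 for tables and plots). Tests were two-sided, and the fit was tested on simulated data. The number of arrays limits the precision. Probe positions are those of mm7 in the files, and exon or UTR annotation of that build was not used here. The genes, lists and probes described were chosen with earlier results of these data known. All listed genes were counted and described, apart from some of the trafficking list that are not reported here, and likeness was given for members spanning over 2 log2 units. Replicate numbers come from the titles. Deviations from group means correlated at -0.21 to 0.59 (median 0.16, 24 pairs) for equal and -0.38 to 0.34 (median -0.07, 72 pairs) for unequal numbers. Equal numbers were taken as pairs where all 4 pairs of a comparison were over 0.1, which held for the resting difference (0.30 to 0.59) and not for the naive response (lowest 0.044), memory response (lowest -0.086) or stimulated difference (lowest 0.054).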

Additional observations from a re-analysis of the deposited data

Results flagged for a closer look

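In 10 of the 68 groups of 4 arrays (17 tested probes in 4 groups), 1 array stood apart from the other 3, where chance alone does so in about 1 of 20. Naive stimulated replicate 1 was low for Klf4 (1.64, the others 3.14 to 3.29), for Klf10 (1.12, the others 1.73 to 1.82) and for Klf13 probe 2 (-6.78, the others -5.91 to -5.84). Memory stimulated replicate 1 was low for Klf13 probe 1 (1.56, the others 2.47 to 2.65). Naive resting replicate 4 was low for Klf3 probe 1 (2.46, the others 3.53 to 3.54) and for Klf9 probe 1 (-2.37, the others -1.85 to -1.81). Memory resting replicate 4 was high for Klf4 (1.44, the others 0.43 to 0.51) and low for Klf6 probe 2 (3.60, the others 4.09 to 4.16). Replicate 1 was high for Klf7 probe 2 in naive resting (2.74, the others 2.18 to 2.25) and in memory resting cells (1.82, the others 1.45 to 1.50). Klf7 also differed between the cell types in its response, with a fall that was smaller by 0.84 in memory phenotype cells in limma's fit. That call was lost in 6 of the 16 fits that each left out 1 array. It was not made by the second probe alone (adjusted p = 0.174) or by the mean of both probes (adjusted p = 0.0764).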

How the results depend on the processing

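Of 1485 refits of single genes or probes, 1400 kept their side of the threshold and direction. Klf2 turned sign against its main probe on probe 2 (-4.93 in the naive response, -0.73 in the resting and -0.88 in the stimulated difference) and with the mean over its probes in the naive response (-2.36). Klf11 in the memory response was 0.24 and not called (adjusted p = 0.580) under the normexp background correction, whose fit did not converge on 3 arrays. With those repaired from the other 13, chosen after seeing the data, it fell again. Counts of called genes moved by over 1.5 times as follows. With the replicate number as a block, the genes called higher were 2 in the naive response, 1 in the resting difference and 2 in the interaction (38.6%, 16.1% and 9.23% of all genes). In the stimulated difference 2 were lower with the block (18.0% of all genes). The block changed no other count by that much, and the numbers paired the samples in the resting difference only. Median scaling gave 7 lower at rest, 1 higher after stimulation and 5 higher in the interaction (23.8%, 16.6% and 26.2% of all genes). Normexp without repair gave 0 lower at rest and 0 higher in the interaction (0.576% and 0.163% of all genes). The interaction count was 0 where every tested probe had to be called, for which no share over all genes is given. It was also 0 with the mean over probes (4.65% of all genes). It was 2 with quantile scaling (7.18%) and 2 in the authors' deposited table (9.13%). Leaving out 1 array at a time, the genes called higher were 1 to 2 in the naive response (34.0% to 37.8% of all genes). They were 1 to 2 in the memory response (28.5% to 30.7%) and 0 to 1 in the resting difference (10.2% to 17.7%). In the interaction 0 to 2 were higher (3.93% to 6.92%), and in the stimulated difference 0 to 2 were lower (10.1% to 16.1%). The slide as a block was not run, since each slide holds 1 group. The cause of these differences was not tested. Klf12 and Klf13 probe 2 are limited by signal near background.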
